A study of Mus musculus with 4 samples.

Results

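The Sgk kinases are 3 mouse genes, Sgk1, Sgk2 and Sgk3, and they were taken from the array as every probe set whose annotation gave exactly 1 gene symbol equal to one of these names. They made up 5 of 45037 probe sets and 3 of 18193 genes: Sgk1 and Sgk2 had 1 probe set each and Sgk3 had 3. All the cells were mDCT, an immortalised mouse line labelled as distal convoluted tubule, and all had been transfected by lipid reagent with human mineralocorticoid receptor (MR) carrying a FLAG tag, so the controls carried the human receptor too. The 4 libraries, 1 per treatment, came from cells given 5 µM spironolactone 2 h before 100 nM aldosterone, from cells given ethanol, from cells given 1 nM aldosterone and from cells given 100 nM aldosterone. Aldosterone or its ethanol vehicle was on the cells for 3 h, and the first agent was added 48 h after transfection. No library received spironolactone alone.

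Sgk kinases are serine/threonine kinases of the AGC class, close relatives of Akt. They are activated by phosphorylation, by mTORC2 in the hydrophobic motif and by PDK1 in the activation loop, downstream of phosphoinositide 3-kinase. Sgk1 is the member controlled mainly through its transcript: in the distal nephron it is an early gene of aldosterone, and its kinase phosphorylates the ubiquitin ligase Nedd4-2 so that more epithelial sodium channel stays at the membrane. Sgk3 carries a phox homology domain that takes it to endosomes, and Sgk2 is the least studied member. Spironolactone is an antagonist that occupies the MR in place of aldosterone.

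The Sgk1 promoter sequences are shown because the MR and the glucocorticoid receptor bind imperfect palindromes of this kind as dimers, and Sgk1 was the member that differed with the hormone. RefSeq (GRCm38.p6) listed 6 Sgk1 transcript starts on the plus strand of chromosome 10, and the 250 bases before each start were searched on both strands. Sequences for Sgk2 and Sgk3 were not analysed here. The full palindrome, AGAACA and TGTTCT with 3 bases of any kind between them, reads the same on both strands and was present before 1 of the 6 starts, at chr10:21993701-21993715. It began 189 bases before that start and 965 bases before the most downstream start. The 2 windows are printed in lower case, with the palindrome in capitals in the first and the letters TATAAA in capitals in the second.
Sgk1, start 5, chr10:21993640-21993889, plus strand: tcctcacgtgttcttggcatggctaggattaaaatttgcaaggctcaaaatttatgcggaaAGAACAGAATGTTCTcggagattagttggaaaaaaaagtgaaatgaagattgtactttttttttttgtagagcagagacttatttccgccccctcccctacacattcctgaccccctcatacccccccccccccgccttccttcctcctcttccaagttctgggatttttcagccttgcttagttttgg
Sgk1, start 6, chr10:21994416-21994665, plus strand: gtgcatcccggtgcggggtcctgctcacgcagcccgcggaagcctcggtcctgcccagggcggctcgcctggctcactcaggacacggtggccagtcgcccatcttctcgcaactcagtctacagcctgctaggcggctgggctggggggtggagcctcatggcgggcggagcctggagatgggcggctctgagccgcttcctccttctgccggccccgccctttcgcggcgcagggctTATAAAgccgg
The palindrome occurred in 3 of 32851 such windows of all genes (0.00913%), those of Sgk1, Acnat2 and Gm35041, and neither of the other two entered the comparisons below. An arm of it, AGAACA or TGTTCT, which overlaps the full motif, stood before 3 of the 6 Sgk1 starts and in 16.1% of all windows. TATAAA, on either strand, stood before 2 of the 6 Sgk1 starts, 28 bases before start 4 and 11 bases before start 6. It was present in 12.4% of all windows. The palindrome was in 0 of the 13 corticosteroid-responsive genes listed below that had a window. The motif was chosen after the Sgk1 windows had been read, and a match of letters is not a site shown to bind a receptor. Of the palindrome only the exact form was searched, so a window without it may still hold an imperfect one. The counts therefore do not show that other genes lack a receptor site.

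The values are MAS5 signals, the brightness of a probe set on a linear scale. All 4 arrays had been scaled to one level before deposit, with a trimmed mean signal of 500.003 in each and medians between 58.7 and 61.5. Differences are log2 differences of signal between 2 libraries, so 1.5-fold is 0.58. With 1 library per treatment no difference has a replicate error or a p-value, the number of arrays limits the precision, and each value describes these arrays. A gene with several probe sets is represented by its brightest, judged by mean log2 signal. The comparisons took in 11057 genes, those no dimmer than the middle probe set of the array, whose signal was 55.9. Above the 75th percentile of signal, 419.8, lay 6936 of them, called bright genes below. All 3 Sgk genes entered, Sgk1 and Sgk3 as bright genes. Signals of different probe sets are not on one scale, so Sgk1, Sgk2 and Sgk3 are not ranked against each other. The labelled cell type was checked with its markers. Slc12a3, the sodium chloride cotransporter that defines the distal convoluted tubule, had signals of 4.35 with spironolactone, 3.93 with ethanol, 17.2 with 1 nM and 12.1 with 100 nM aldosterone and did not enter, nor did Calb1. Of 7 distal tubule markers with a probe set 4 entered (Pvalb, Trpm6, Wnk1 and Wnk4). Of 6 kidney epithelial markers 3 entered (Cdh16, Epcam and Pax8) and Cdh1, Krt8 and Krt18 did not. All 5 proximal tubule markers entered, among them the water channel gene Aqp1 at 2069 to 2479, against 1 of 5 for the collecting duct (Hsd11b2). Some of the counted markers lay near the filter, under it in some libraries and above it in others. Slc5a2 had 45.4 in ethanol, Slc34a1 44.6 with spironolactone and the distal marker Pvalb 38.3 with spironolactone. The counts therefore lean in part on dim genes. Of 6 fibroblast markers the filament gene Vim alone entered, at 21509 to 23768.

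Sgk1 was the kinase of the family that differed by at least 1.5-fold with aldosterone, at 100 nM. Its signal was 1424 when spironolactone preceded 100 nM aldosterone, and without the antagonist it was 801 in ethanol, 935 with 1 nM aldosterone and 1810.4 with 100 nM aldosterone. The order from low to high was therefore ethanol, 1 nM, spironolactone with 100 nM, and 100 nM alone. Its mean placed it at the 86.4th percentile of all probe sets. In these arrays more cells expressing Sgk1 and more Sgk1 RNA per cell cannot be told apart.

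**Figure D1:**
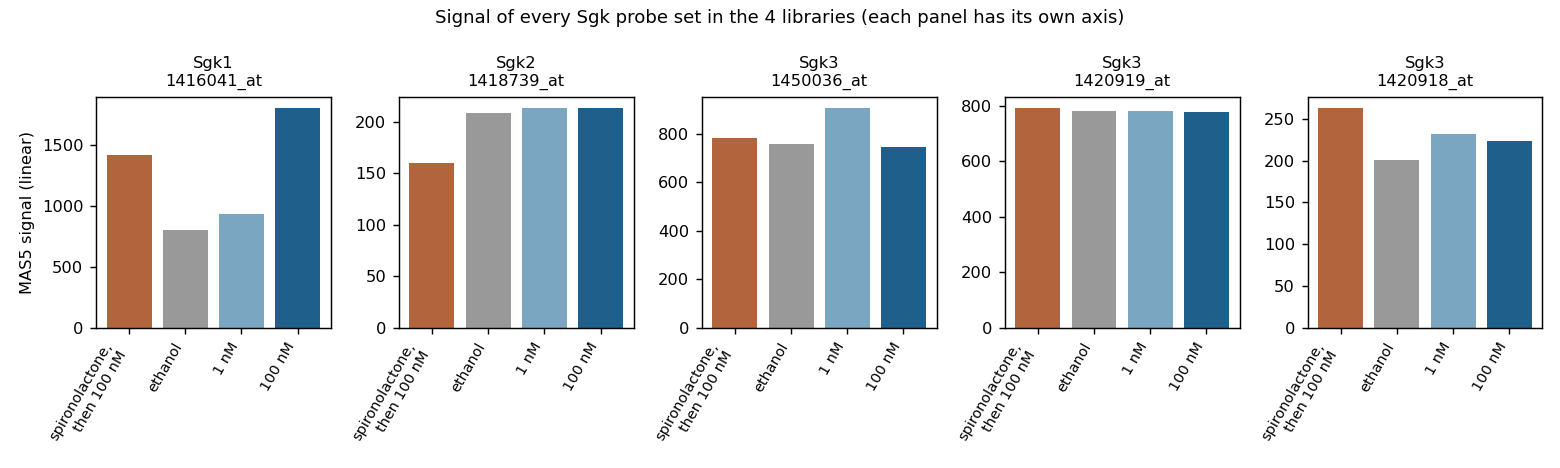
MAS5 signal (linear axes from 0, one axis per panel) of all 5 Sgk probe sets, with 1 bar for each library. Sgk1 reached 1810.4 with 100 nM aldosterone against 801 in ethanol, while the Sgk3 probe set 1420919_at stayed between 777 and 793 in all 4 libraries.

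With 100 nM aldosterone the Sgk1 signal of 1810.4, against 801 in ethanol, was 2.26-fold higher, a log2 difference of 1.18. Of the 3 Sgk genes 1 was at least 1.5-fold higher, where 2.39% of all entered genes and 0.231% of the bright genes were. Among the 6936 bright genes Sgk1 ranked 1st in this comparison, and among all 11057 it ranked 54th, the 53 genes above it all being dimmer than the 75th percentile. The median difference of all entered genes was 0.00. Sgk2 had a signal of 213.9 with 100 nM aldosterone and 209 with ethanol, a log2 difference of 0.03. The leading Sgk3 probe set had 743 with 100 nM aldosterone and 755 with ethanol, a difference of -0.02.

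With 1 nM aldosterone the Sgk1 signal was 935, against 801 in ethanol, a log2 difference of 0.22 or 1.17-fold. At this dose 0 of the 3 Sgk genes were past 1.5-fold in either direction, where 2.61% of entered genes were higher and 2.07% lower by that much, 289 and 229 genes (221 and 301 after centring each library on its median). Sgk1 ranked 361st of the bright genes, so 360 of them differed more in the same direction. Sgk3 was among these, at 0.26 in its leading probe set, while its other probe sets differed by 0.00 and 0.21. The Sgk1 difference at 1 nM was 19.0% of the one at 100 nM on the log2 scale and 13.3% of it on the signal scale. Both doses are set against the same ethanol library.

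Between the doses, Sgk1 had 1810.4 with 100 nM aldosterone against 935 with 1 nM, a log2 difference of 0.95 or 1.94-fold. It was the 1 Sgk gene past 1.5-fold here, where 2.04% of entered genes and 0.317% of bright genes were higher by that much, and it ranked 6th of the bright genes. Of the entered genes 226 were higher and 217 lower (1.96%) by 1.5-fold (277 and 175 after centring each library on its median). Sgk2 had 213.9 at both doses.

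With spironolactone before 100 nM aldosterone, Sgk1 had a signal of 1424, against 1810.4 with 100 nM aldosterone alone, a log2 difference of -0.35, or 21.4% lower. That is short of 1.5-fold, and 108 bright genes differed more in the same direction. None of the 3 Sgk genes was past 1.5-fold in this comparison, where 1.83% of entered genes were higher and 2.51% lower by that much. Against ethanol the spironolactone library was still higher: 1424 against 801, a log2 difference of 0.83 or 1.78-fold. Here 1 of the 3 Sgk genes was at least 1.5-fold higher, where 2.17% of entered and 0.202% of bright genes were, and Sgk1 ranked 4th of the bright genes. The gain over ethanol that remained with spironolactone was 70.6% of the gain with 100 nM aldosterone alone on the log2 scale and 61.7% on the signal scale. Of the listed corticosteroid-responsive genes at least 1.5-fold higher at 100 nM, Per1, a circadian repressor, had a share of 40.0% on the signal scale. For Tsc22d3, which encodes the leucine zipper protein GILZ, the share depended on the probe set. It was 43.2% in the leading one and 59.96% and 80.3% in the other 2 above the filter, so Tsc22d3 has no settled order with Sgk1. Per1 has 1 probe set, and its share was under that of Sgk1 on this scale and on the log2 scale (50.2%). All these shares use the same 3 libraries.

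**Figure D2:**
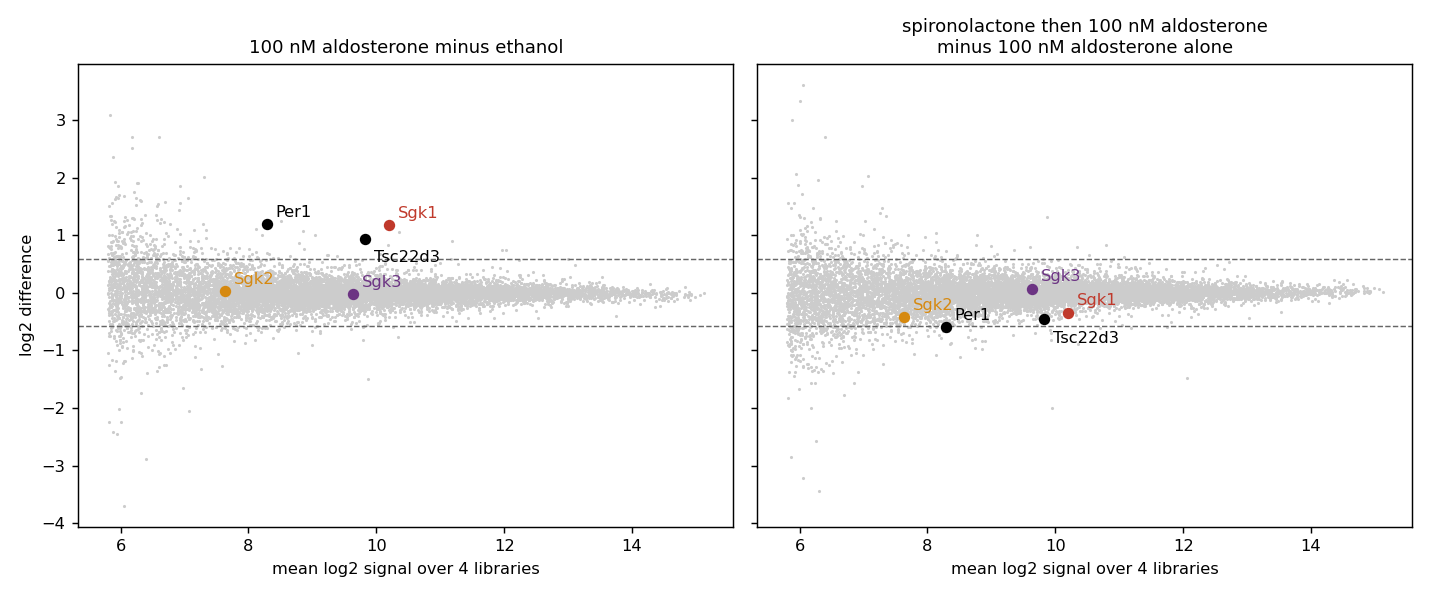
Log2 difference against mean log2 signal over the 4 libraries for all 11057 entered genes (grey), with the Sgk genes, Per1 and Tsc22d3 marked and dashed lines at 1.5-fold. Left, 100 nM aldosterone minus ethanol, where Sgk1 stands at 1.18; right, spironolactone with 100 nM aldosterone minus 100 nM aldosterone alone, where Sgk1 stands at -0.35.

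Sgk2 did not follow Sgk1. Its signal was 160.2 with spironolactone, 209 in ethanol, 213.9 with 1 nM and 213.9 with 100 nM aldosterone. The 3 libraries without spironolactone lay within 5 signal units of each other, and the spironolactone library was the low one. The log2 difference of spironolactone from 100 nM aldosterone alone was -0.42, and from ethanol -0.38, both under 1.5-fold. Lower than Sgk2 in these comparisons were 590 and 612 of the entered genes. Its difference at 1 nM lay between -0.03 and 0.04 over the scalings, so it has no settled sign.

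Sgk3 was measured by 3 probe sets designed on the same transcript record, and they did not share an order of the libraries. The leading one, 1450036_at, had 780.5 with spironolactone, 755 in ethanol, 907 with 1 nM and 743 with 100 nM aldosterone, so the 1 nM library was the high one, by 0.26 over ethanol. The second, 1420919_at, had 793, 781, 782 and 777 in the same order. It spanned 1.02-fold in all, and its 1 nM difference from ethanol was 0.00. The third, 1420918_at, had 264 with spironolactone, 200.5 in ethanol, 232 with 1 nM and 224 with 100 nM aldosterone, and there the spironolactone library was the high one, by 0.40 over ethanol. None of the 3 probe sets reached 1.5-fold between any 2 libraries, the widest span being 1.32-fold. Higher than the 0.40 of the third probe set against ethanol were 491 entered genes.

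The genes around the kinases were counted in 6 lists, and the list medians are given beside the median of all entered genes, which lay between -0.01 and 0.00 in each comparison. Lists and their members were chosen with earlier results of these arrays known. In the list of genes that activate Sgk kinases, 17 of 19 entered. With 100 nM aldosterone 0 were past 1.5-fold against ethanol in either direction, where 2.39% of all entered genes were higher and 1.72% lower, and the list median was -0.08. Pdpk1, which encodes PDK1, had 2573 with 100 nM aldosterone and 2741 with ethanol, a difference of -0.09. Rictor, the defining subunit of mTORC2, had 1313 and 1362, a difference of -0.05. These genes of the direct activation route are named for their roles, outside the naming rule. Only the leading probe set of each is given, of 2 for Pdpk1 and 5 for Rictor. The members farthest from 0 were the insulin receptor substrates Irs1 (-0.50) and Irs2 (-0.33) and Prr5l, an mTORC2-associated protein (0.34).

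With spironolactone, Irs1 had a signal of 1769, against 1124 with 100 nM aldosterone alone, a log2 difference of 0.65. It was the 1 member of this list past 1.5-fold there, where 1.83% of entered genes were higher and 2.51% lower by that much. Against ethanol, at 1590.0, Irs1 differed by 0.15. Irs2 had 89.0 with spironolactone against 152 with ethanol, a difference of -0.77, the 1 member past 1.5-fold in that comparison, where 2.03% of entered genes were as much lower. Both adaptors link insulin and IGF receptors to phosphoinositide 3-kinase, and each has 1 probe set. They stood on opposite sides of their level in 100 nM aldosterone alone, Irs2 differing from it by -0.44.

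Other AGC kinases served as the relatives of the family, and 14 of 21 entered. With 100 nM aldosterone the list median was -0.06, with 0 members higher by 1.5-fold and 1 lower against ethanol, where 2.39% of all entered genes were higher and 1.72% lower. That 1 was Pkn3, with 225 against 352 in ethanol, a difference of -0.65 that was -0.58, short of 1.5-fold, with 32 added to every signal. Akt1, a growth factor kinase with a substrate motif like that of Sgk1, had 487 with 100 nM aldosterone and 584 with ethanol, a difference of -0.26. In its other 2 probe sets above the filter the differences were -0.14 and -0.40. Prkacb, a catalytic subunit of protein kinase A, differed by -0.25. Rps6kb2, which encodes a second p70 S6 kinase, was low with 1 nM aldosterone alone, 129 against 231 in ethanol, a difference of -0.84. It had 177 with spironolactone and 248 with 100 nM aldosterone. It was the 1 member past 1.5-fold in the comparison of 1 nM with ethanol, where 2.07% of entered genes were lower by that much. It was also the 1 such member in that of 100 nM with 1 nM (0.94), where 2.04% were higher by that much. No member of the list was as high above ethanol as Sgk1 with 100 nM aldosterone, the highest difference being 0.10. Only 0.48% of all entered genes were higher than Sgk1 there, so a count of 0 of 14 is near the background.

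Of 19 listed symbols for Sgk substrates 18 entered, the remaining symbol being a second name of the listed Slc9a3r2. In the 5 comparisons 0 were past 1.5-fold, although Foxo3 at 1 nM lay at the line in its leading probe set. Of all entered genes 1.83% to 2.61% were higher and 1.72% to 2.51% lower by that much, so a count of 0 of 18 is near the background. The median with 100 nM aldosterone against ethanol was -0.05. Nedd4l, which encodes Nedd4-2, had 923 with 100 nM aldosterone and 993 with ethanol, a difference of -0.10. Ndrg1, whose protein is the usual readout of Sgk1 activity, had 5435 and 5327, a difference of 0.03. Both are named for their roles, outside the naming rule, and a transcript level says nothing of phosphorylation. Only the leading probe set of each is given, of 6 for Nedd4l and 5 for Ndrg1. The substrates farthest from 0 were 3 forkhead factors that Sgk and Akt kinases keep out of the nucleus. Foxo3 had 925 with 100 nM aldosterone and 1202 with ethanol (-0.38), Foxo4 had 157 and 206 (-0.39), and Foxo1 had 436 and 535 (-0.29). With 1 nM aldosterone they differed from ethanol by -0.58, -0.43 and -0.17, and with spironolactone by 0.05, 0.03 and -0.23. The leading Foxo3 probe set at 1 nM was past 1.5-fold (-0.65) after centring each library on its median. The other Foxo3 probe set above the filter differed at 1 nM by -0.08, without centring. Other probe sets above the filter differed less at 100 nM, by -0.08 for Foxo3, and by -0.21 and 0.09 for Foxo1, and the other Foxo4 probe set was below the filter.

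Most channels and transporters under Sgk control were dim in these cells. Of 22 listed 18 had a probe set and 7 entered, and Scnn1b, Scnn1g, Slc12a3, Slc12a1, Kcnj1, Slc9a3 and Trpv6 were among those below the filter, so their differences are not read. Of the sodium channel subunits only Scnn1a entered, near the filter. Its signal was 99.2 with spironolactone, 58.2 in ethanol, 89.3 with 1 nM and 87.5 with 100 nM aldosterone, so ethanol was the low library and the other libraries lay together. Against ethanol it differed by 0.59 with 100 nM, 0.62 with 1 nM and 0.77 with spironolactone, and by 0.41, 0.43 and 0.54, all under 1.5-fold, with 32 added to every signal. At 100 nM and 1 nM it was also short of 1.5-fold after median centring, at 0.57 and 0.55. It was the 1 member of 7 past 1.5-fold in each of these comparisons, where 2.39%, 2.61% and 2.17% of all entered genes were higher by that much. Atp1b1, the beta subunit of the sodium pump, had 5465 with 100 nM aldosterone and 4622 with ethanol, a difference of 0.24, while its other 3 bright probe sets differed by 0.01 to 0.08 and a dim one, just above the filter, by -0.44. Orai1, the pore of the store-operated calcium channel, differed by -0.22, and its other probe set by 0.09.

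In the list for turnover and chaperoning of the Sgk1 protein 11 of 12 genes entered, with a median of -0.09 for 100 nM aldosterone against ethanol. At least 1.5-fold higher was 1 member, where 2.39% of all entered genes were. It was Tsc22d3, whose protein GILZ joins Sgk1 and Nedd4-2 in the complex that regulates the sodium channel. Its signal was 994 with spironolactone, 711 in ethanol, 703 with 1 nM and 1365 with 100 nM aldosterone, with a difference of 0.94 at 100 nM. In its other 2 probe sets above the filter the differences were 0.63 and 0.53. Syvn1, the endoplasmic reticulum ubiquitin ligase that marks Sgk1 for degradation, differed by -0.21 with 100 nM aldosterone and by -0.34 with 1 nM, its other probe set by 0.13 and 0.00. The chaperone gene Hsp90aa1 differed by -0.24 at 100 nM and its other bright probe sets by -0.03 and 0.06.

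**Figure D3:**
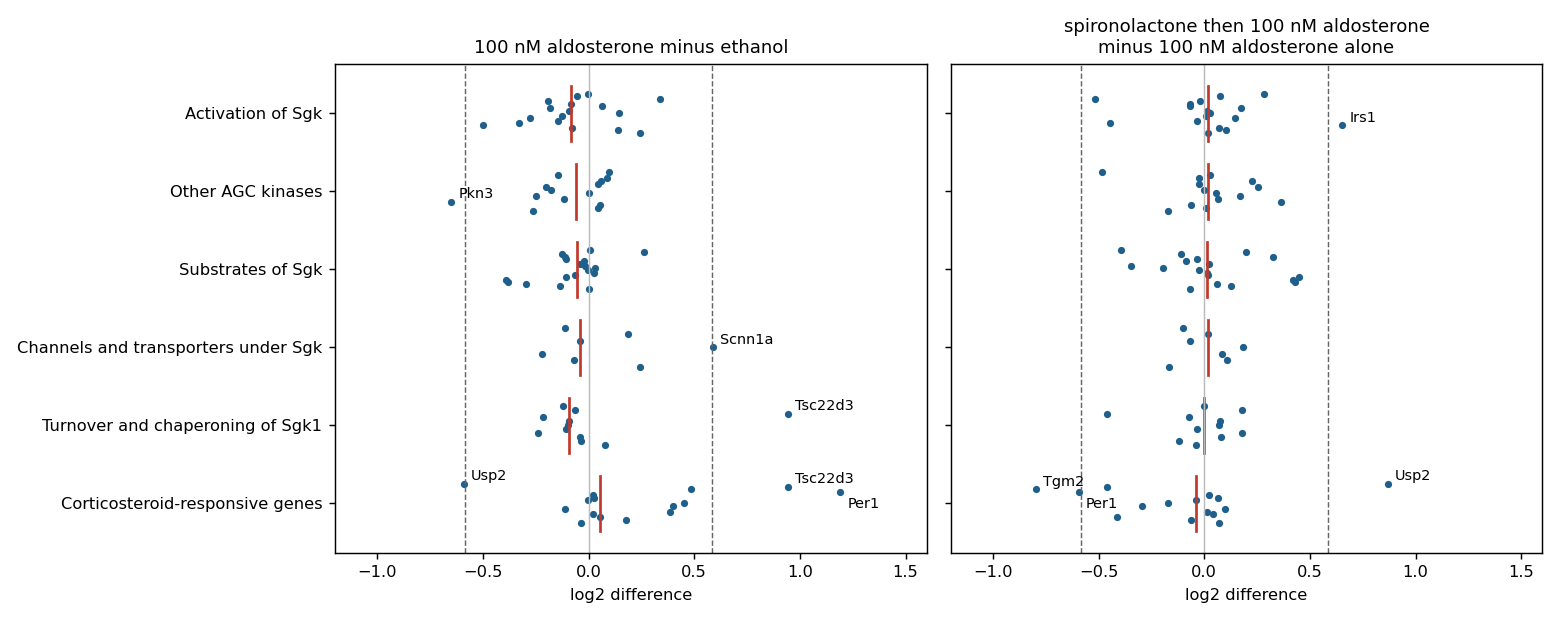
Log2 differences of the entered members of the 6 gene lists (points), with list medians as red bars and dashed lines at 1.5-fold, for 100 nM aldosterone minus ethanol (left) and for spironolactone with 100 nM aldosterone minus 100 nM alone (right). Members past 1.5-fold are named, and most members of every list lie between the dashed lines.

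Of 16 listed corticosteroid-responsive genes 15 entered, with a median of 0.06 for 100 nM aldosterone against ethanol. At least 1.5-fold higher were 2 of them, Per1 (527 against 231 in ethanol, a difference of 1.19) and Tsc22d3, and 1 was lower, the deubiquitinase Usp2 (-0.59, but -0.48 with 32 added to every signal and -0.55 after quantile normalization). Of all entered genes 2.39% were higher and 1.72% lower by that much. In the step between the doses Sgk1 differed by 0.95, Per1 by 1.24 and the leading Tsc22d3 probe set by 0.96, while the remaining 2 that passed the filter for Tsc22d3 gave 0.67 and -0.05. At 1 nM Sgk1 differed from ethanol by 0.22 and Per1 by -0.04. There the leading Tsc22d3 probe set differed by -0.02 and the other 2 by -0.04 and 0.58, so the Tsc22d3 probe sets do not share a dose pattern. With spironolactone, set against 100 nM aldosterone alone, Per1 differed by -0.59 (-0.55 with 32 added) and Tsc22d3 by -0.46 (-0.22 and -0.09 in the other 2 probe sets), beside the -0.35 of Sgk1. The transglutaminase gene Tgm2 differed there by -0.80, and its other 4 probe sets above the filter by -0.50 to 0.52. Usp2 differed by 0.87, and its other probe set was below the filter. The endothelin gene Edn1 was the 1 member past 1.5-fold at 1 nM, where 2.61% of all entered genes were higher by that much. It differed by 0.79 from an ethanol signal of 45.7, under the filter, and by 0.51, short of 1.5-fold, with 32 added to every signal.

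The genes most like Sgk1 over the 4 libraries were found by the root mean square distance between log2 signals, each centred on the gene's own mean. A distance over 4 points is a description, and the genes share the same 4 arrays. The 8 nearest of the 11057 entered genes lay at 0.05 to 0.15, in the order Zfp874b, Ifitm10, Sry, Irf7, Sdc3, Tsc22d3, Per1 and Slc5a10. Of these 7 were dimmer than the bright genes, and 4 had an ethanol signal under the filter. Sdc3, a heparan sulphate proteoglycan gene, had a second probe set above the filter with a difference of 0.01 at 100 nM against 1.19 in the leading one. Irf7, an interferon regulatory factor, had 186 with spironolactone, 112 in ethanol, 113 with 1 nM and 208 with 100 nM aldosterone. Among the bright genes, a selection made after the dim ones had been seen, the nearest was Tsc22d3, in its leading probe set, at 0.13. Next came Akap12, an anchor for protein kinases A and C, at 0.16 and Ccn2, a matrix-associated growth factor gene, at 0.18. Akap12 had 4930 with spironolactone, 3284 in ethanol, 3396 with 1 nM and 5495 with 100 nM aldosterone. Ccn2 had 4835, 3342, 2887 and 5602 in the same order. Both had their high signals in the 2 libraries given 100 nM aldosterone, like Sgk1, as genes chosen for nearness to it would. Each has 1 probe set. The remaining bright genes, Zfp428, Pan3, Mrpl33, Dhcr7 and Qsox2, lay at 0.24 to 0.29. The leading Pan3 probe set differed by 1.05 with 100 nM aldosterone against ethanol, but its other 2 above the filter differed by -0.19 and -0.12.

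**Figure D4:**
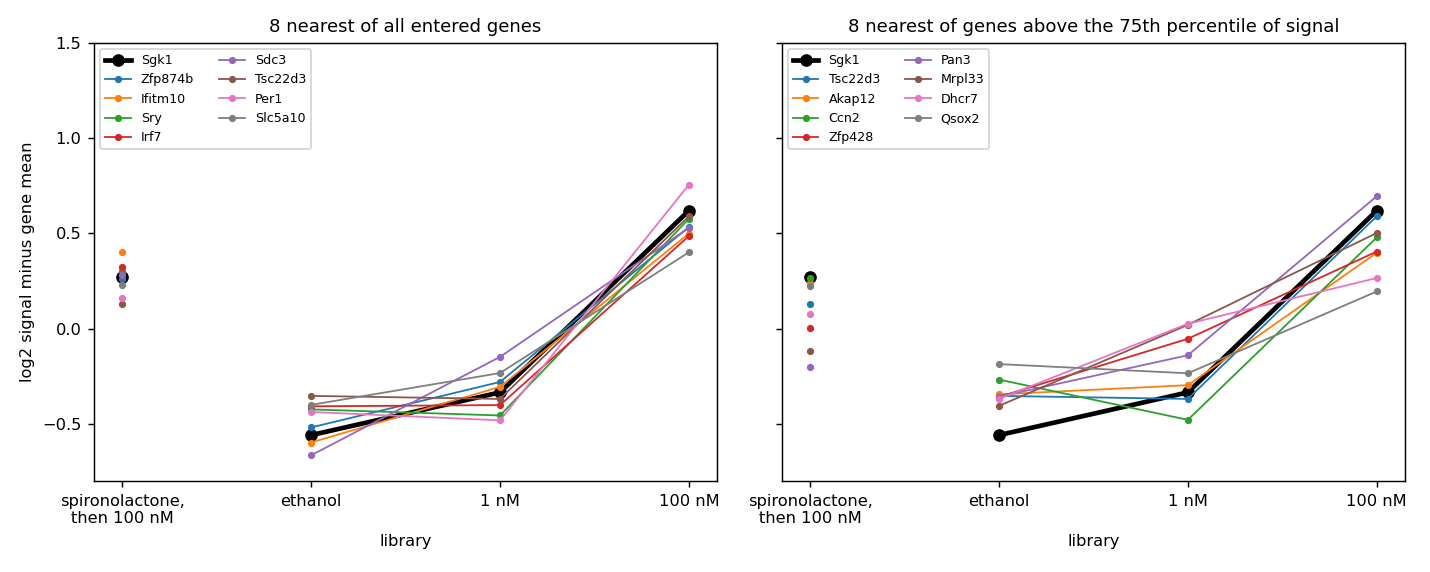
Log2 signal minus the gene's own mean in the 4 libraries for Sgk1 (black) and the 8 genes nearest to it, of all entered genes (left) and of the bright genes (right), lines joining the dose series. In the left panel the lines lie within a root mean square distance of 0.15 of Sgk1, and in the right panel within 0.29.

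The genes beside the 3 kinases on their chromosomes were looked up as well. Of the 18 nearest protein-coding genes in the RefSeq order, 3 on each side of each Sgk gene, 14 had a probe set and 8 entered. In all 5 comparisons 0 of these 8 were past 1.5-fold, where 1.83% to 2.61% of all entered genes were higher and 1.72% to 2.51% lower. With 100 nM aldosterone against ethanol their leading probe sets lay between -0.29 for Mybl1 and 0.31 for Myb. The other probe set above the filter differed by 0.35 for Mybl1, the opposite sign, and by 0.06 for Myb. Beside Sgk1 the entered neighbours were Myb, a transcription factor gene, with 157 with 100 nM aldosterone and 127 with ethanol, and Hbs1l, with 3897 and 3881 (-0.19 and -0.17 in its other 2 probe sets, both above the filter). Aldh8a1, the immediate neighbour before Sgk1 in that order, was dim, with 73.3 with 100 nM aldosterone and 32.7 with ethanol, and did not enter. Its other probe set, dimmer still, differed by -0.71. The immediate neighbour after Sgk1, 4930444G20Rik, was dim too and did not enter. It had 40.8 with 100 nM aldosterone and 24.5 with ethanol.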

How the data were processed

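Gene expression in 4 libraries, 1 per treatment, was measured from 250 ng of total RNA on an Affymetrix 3' array. The authors deposited 1 linear intensity per probe set and library, computed by MAS5 according to the submitters' processing notes. No version, scaling target or detection call was at hand, so background and saturation cannot be told per probe. The number of value columns of other samples was 0.

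Of 45101 probe sets 64 array controls were left out. Platform annotation gave 34945 probe sets 1 symbol, and 34741 of these matched RefSeq genes of GRCm38.p6 by Entrez identifier, changing 0 symbols. No pseudocount was used. No test was possible, and the counting step was tested on simulated data. Python 3.11.15, numpy 2.4.6 and pandas 2.3.3 were used.

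Named genes are list members past 1.5-fold in any of 5 comparisons, the 3 of each list farthest from 0 for 100 nM aldosterone against ethanol, the 8 nearest patterns and the genomic neighbours. Members, lists and rules were chosen with earlier results of these data known. Alternatives were quantile normalization, median centring, 32 added to every signal, a median taken across probe sets of one gene, and other filters.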

Additional observations from a re-analysis of the deposited data

How the results depend on the processing

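The differences of Sgk1 kept their direction and their side of 1.5-fold in all 20 recomputed values, moving by at most 0.07 on the log2 scale. Under the 2 other scalings, the offset and the median over probe sets, Sgk1 lay at 1.15 to 1.19 for 100 nM aldosterone against ethanol, at 0.16 to 0.24 for 1 nM against ethanol and at 0.93 to 1.01 between the doses. It lay at -0.35 to -0.34 for spironolactone against 100 nM aldosterone alone and at 0.81 to 0.84 for spironolactone against ethanol. Sgk1 has 1 probe set, so the median over probe sets could not move it.

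The counts of genes past 1.5-fold depended on how dim genes were handled. In the order 100 nM against ethanol, 1 nM against ethanol, 100 nM against 1 nM, spironolactone against 100 nM alone, and spironolactone against ethanol, they were 454, 518, 443, 479 and 465. With 32 added to every signal they were 247, 287, 235, 249 and 231. With the filter at the 75th percentile they were 29, 44, 32, 32 and 27, with no filter 4746, 4828, 4744, 4800 and 4766, and with the median over probe sets 1109, 1085, 1035, 1162 and 1094. Fewer or more genes tested and compressed low signals account for the filter and offset counts by construction. Quantile normalization and median centring kept all 5 counts within 1.5 times.

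No paired analysis was possible because each treatment had 1 library, and leaving out a replicate was likewise not possible.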
